A study of Mus musculus with 10 samples.

Results

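The regions described here are stretches of autosomal chromatin called accessible in 4C-sorted cells of Smarca5 conditional knockout (cKO) testis and in neither wild-type counterpart. They were found by merging the ATAC-seq peaks of 4 libraries of 4C-sorted cells on chromosomes 1 to 19 and keeping each merged region with at least 1 bp of peak in both cKO libraries and none in either wild-type library. Of 89191 merged regions 4316 met this rule, which is 4.84%. In the opposite direction 2361 regions were found in both wild-type lists and neither cKO list, and 28051 regions were present in all 4 lists.

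The libraries were ATAC-seq of 50000 sorted cells each, in 4 groups of 2, from mouse testis. The 4C-sorted groups were cKO (genotype Smarca5 fl/delta with Ddx4-Cre, 2 libraries) and wild type C57BL6 (2 libraries), sorted on Hoechst-stained DNA content, a gate that the labels equate with pachytene-stage cells or cells resembling them. The cKIT+ groups were cKO (2 libraries) and wild type (2 libraries) of the same genotypes, taken here as sorted on the surface receptor that marks differentiating spermatogonia. Their labels also carry the description of the DNA content sort, and the reading as cKIT+ cells rests on the line on library construction, so every retained-site value depends on it. Single-cell RNA of whole testis was available from 2 cKO samples and from no wild-type sample. Ages and the separateness of the animals are not stated in the labels, so the spread between replicates may be technical. Ddx4-Cre is active in germ cells, and somatic cells of the testis keep the floxed allele.

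SMARCA5 is the motor subunit of the ISWI chromatin remodelers, which slide and space nucleosomes. ATAC-seq reads out where a transposase can enter between nucleosomes, so a peak marks an accessible promoter, enhancer or factor-bound site. As spermatogonia enter meiosis and reach pachytene, many spermatogonial sites close while sites of meiotic and spermatid genes open. A region open in cKO 4C-sorted cells but not in the wild type may therefore be one that spermatogonia also hold open, or one that they do not, and the cKIT+ lists, which the rule did not use, separate these. Regions with a peak in both wild-type cKIT+ lists are called retained spermatogonial sites below. The name states this overlap only, and the cells that hold the sites open in the 4C gate are not known.

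Promoter sequences of 7 genes are shown to make the kinds of promoter among these regions visible. They were chosen after their values were seen. Each is the RefSeq window from 250 bases before to 50 bases after an annotated transcription start (GRCm38.p6, the mm10 primary assembly), printed in the direction of the gene, with the bases that lie inside the cKO-only region in capitals. The first 4 overlap a cKO-only region with no peak in any of the 4 cKIT+ lists. H2bl1, a testis histone H2B variant gene, lies at chr13:98984516-98984815 on the minus strand. Bri3, which encodes a small membrane protein, lies at chr5:144244187-144244486 on the plus strand. Gm8165 (chr14:43677191-43677490, minus strand) and Gm8220 (chr14:44285295-44285594, plus strand) are predicted genes with near-identical promoters. The last 3 overlap retained sites. Lrrk2, a leucine-rich repeat kinase gene, lies at chr15:91672974-91673273, Nkx2-3, a homeobox gene, at chr19:43612075-43612374, and Igtp, an interferon-induced GTPase gene, at chr11:58199306-58199605, all on the plus strand.
H2bl1: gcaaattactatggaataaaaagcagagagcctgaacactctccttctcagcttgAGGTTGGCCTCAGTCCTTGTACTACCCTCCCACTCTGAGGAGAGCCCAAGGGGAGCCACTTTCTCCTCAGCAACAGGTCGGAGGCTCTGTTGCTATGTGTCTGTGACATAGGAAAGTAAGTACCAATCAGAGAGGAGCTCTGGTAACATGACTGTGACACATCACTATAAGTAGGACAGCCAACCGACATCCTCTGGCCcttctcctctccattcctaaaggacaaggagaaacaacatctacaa
Bri3: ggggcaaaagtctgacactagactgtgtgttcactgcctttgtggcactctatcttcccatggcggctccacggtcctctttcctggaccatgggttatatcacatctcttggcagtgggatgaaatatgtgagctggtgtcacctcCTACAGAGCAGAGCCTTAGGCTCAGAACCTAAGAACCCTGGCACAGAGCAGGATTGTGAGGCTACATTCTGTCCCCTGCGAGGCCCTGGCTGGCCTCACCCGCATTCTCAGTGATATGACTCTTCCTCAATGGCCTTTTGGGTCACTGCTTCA
Gm8165: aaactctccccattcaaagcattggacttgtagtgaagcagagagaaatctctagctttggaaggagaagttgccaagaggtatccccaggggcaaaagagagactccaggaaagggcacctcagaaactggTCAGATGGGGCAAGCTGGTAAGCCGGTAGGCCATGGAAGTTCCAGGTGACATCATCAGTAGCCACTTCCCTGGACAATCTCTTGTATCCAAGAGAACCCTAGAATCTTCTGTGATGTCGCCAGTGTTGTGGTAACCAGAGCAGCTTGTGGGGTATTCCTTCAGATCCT
Gm8220: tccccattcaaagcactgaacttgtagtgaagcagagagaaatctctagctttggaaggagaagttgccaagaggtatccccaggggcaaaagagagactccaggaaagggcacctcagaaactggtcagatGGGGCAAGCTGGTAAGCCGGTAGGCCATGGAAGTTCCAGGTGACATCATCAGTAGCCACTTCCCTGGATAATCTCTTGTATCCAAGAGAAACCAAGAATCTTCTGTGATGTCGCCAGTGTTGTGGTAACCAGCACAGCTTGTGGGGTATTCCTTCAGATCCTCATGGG
Lrrk2: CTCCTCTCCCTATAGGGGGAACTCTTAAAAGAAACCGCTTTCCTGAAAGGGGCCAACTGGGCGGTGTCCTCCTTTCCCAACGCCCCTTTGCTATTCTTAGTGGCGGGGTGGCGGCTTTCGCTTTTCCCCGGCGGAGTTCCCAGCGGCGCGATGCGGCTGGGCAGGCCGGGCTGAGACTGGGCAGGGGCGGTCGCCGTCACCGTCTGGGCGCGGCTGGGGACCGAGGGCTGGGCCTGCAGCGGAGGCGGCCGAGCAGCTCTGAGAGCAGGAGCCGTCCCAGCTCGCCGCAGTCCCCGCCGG
Nkx2-3: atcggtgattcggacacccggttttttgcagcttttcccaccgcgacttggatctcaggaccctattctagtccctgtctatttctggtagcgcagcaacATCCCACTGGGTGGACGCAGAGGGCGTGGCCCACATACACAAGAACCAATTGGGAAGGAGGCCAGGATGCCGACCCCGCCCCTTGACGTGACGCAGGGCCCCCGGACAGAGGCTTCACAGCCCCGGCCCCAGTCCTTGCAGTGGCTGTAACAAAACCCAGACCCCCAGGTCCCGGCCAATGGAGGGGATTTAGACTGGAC
Igtp: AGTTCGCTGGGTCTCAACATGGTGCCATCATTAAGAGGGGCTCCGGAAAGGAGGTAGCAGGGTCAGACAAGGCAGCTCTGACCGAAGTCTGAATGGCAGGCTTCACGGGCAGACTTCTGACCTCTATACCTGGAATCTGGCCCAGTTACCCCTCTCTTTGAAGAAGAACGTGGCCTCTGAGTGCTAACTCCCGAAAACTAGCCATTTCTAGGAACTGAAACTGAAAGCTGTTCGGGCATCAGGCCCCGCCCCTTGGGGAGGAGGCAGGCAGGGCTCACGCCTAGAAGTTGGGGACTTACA

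The windows differ in base composition. The Lrrk2 window was 68.7% G or C and held 28 CpG dinucleotides, and all 300 bases lay inside the region. The H2bl1 window was 48.7% G or C and held 2 CpG, and 199 of its bases lay inside the region. Gm8165 and Gm8220 held 2 CpG each and were identical at 95.7% of the 300 positions at the best ungapped shift. Reads of such copies can be placed on either, so peaks at these genes are uncertain.

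The 4C-sorted lists were of similar length and held 51920 and 55233 autosomal peaks in cKO against 47736 and 49488 in wild type. The cKIT+ lists held 124415 and 119128 autosomal peaks in cKO, and 43672 and 110176 in wild type. Wild-type cKIT+ replicate 1 stood apart with fewer peaks and a different naming of its peaks, so the main shares are also given by replicate 2 alone. Gene-end peaks present in all 4 4C-sorted lists were found at 10 of 10 pachytene or diplotene marker genes, but also at 9 of 10 spermatogonial markers, against 62.3% of all protein-coding genes. They were found at 3 of 10 round spermatid markers. Among markers of other cells they were found at 5 of 10 Sertoli, 4 of 8 stromal, 2 of 6 Leydig, 2 of 6 endothelial, 0 of 8 macrophage and 0 of 5 T cell markers. The lists give no purity of the sort: an altered mix of cells in the 4C gate and altered chromatin within the cells cannot be told apart in these bulk libraries.

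The cKO-only regions were short and weakly enriched. Their median width was 322 bp, against 329 bp for wild-type-only regions and 792 bp for regions in all 4 lists. The median fold enrichment over the local background was 3.45 and 3.43 in the 2 cKO libraries, with a median −log10 q of 2.03 and 2.06. Regions in all 4 lists had medians of 4.68 and 4.78 in cKO and 4.96 and 5.04 in wild type. Fold enrichment reached 5 in both cKO libraries at 44 members, and a −log10 q of 5 in both at 77. These values chose the members and are given as a description with no test. The lower of the 2 −log10 q values was below 1.1 at 54 members, where the lowest was 1.01, so these members were just inside the lists. Just outside the rule stood 5012 regions with peaks in both cKO lists and in 1 wild-type list, where the median fold in that wild-type list was 3.43.

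At gene ends the strongest members lay mostly at predicted genes. Of the 10 highest, 4 had no cKIT+ peak. They were Gm30532, with 5.50 and 5.27 in 4C-sorted cKO, and H2bl1, with 5.46 and 4.99. Next were Gm52049, with 4.93 and 5.38, and Gm16506, with 4.61 and 5.52. Among retained sites, one inside C130071C03Rik, 141471 bp from the start of the transcription factor gene Mef2c, had 6.19 and 4.50 in 4C-sorted cKO.

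**Figure D1:**
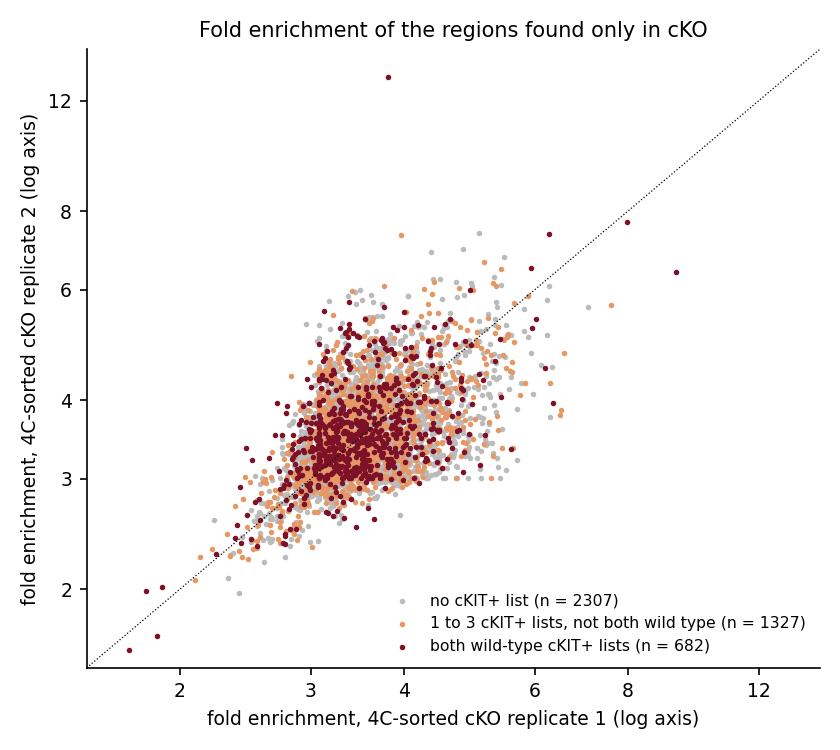
Fold enrichment of each of the 4316 cKO-only regions in 4C-sorted cKO replicate 1 (x axis, log scale) and replicate 2 (y axis, log scale), coloured by overlap with the cKIT+ lists; the dotted line marks equal values. Most members lie near 3.45 in both libraries, and retained sites lie among the others.

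The strongest members included sites that were also strong in spermatogonia. Over all members the SD between the 2 4C-sorted cKO libraries had a median of 0.24. A region at chr16:30829335-30829650, outside genes, had 9.28 and 6.41 in 4C-sorted cKO. Its cKIT+ folds were 5.55 and 7.71 in cKO against 6.62 and 5.99 in wild type. A region at chr15:87967974-87968092, outside genes, had 7.98 and 7.69 in 4C-sorted cKO, with 6.80 and 8.60 in cKIT+ cKO against 8.29 and 8.28 in cKIT+ wild type. At these 2 sites the cKIT+ libraries of the genotypes overlapped. At an annotated end of the predicted gene Gm7895 (chr1:94469909-94470169) the 4C-sorted cKO folds were 6.26 and 7.37, and the cKIT+ folds were 18.9 and 17.4 in cKO against 11.0 and 12.3 in wild type.

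Other strong members had no cKIT+ peak at all. These were a region inside Nars2, which encodes the mitochondrial asparagine tRNA synthetase, with 7.08 and 5.64 in 4C-sorted cKO, a region upstream of the chemokine gene Ccl21d, 34918 bp from its start, with 5.06 and 7.40, and a region inside Notch2, a receptor gene, with 6.27 and 6.09. Of the 10 members with the highest mean fold, 4 had peaks in all 4 cKIT+ lists and 4 in none of them. The 2 remaining were a region 111701 bp from Scg2, with peaks in 3 cKIT+ lists, and one near the pseudogene Vmn2r-ps98, with peaks in both wild-type and neither cKO cKIT+ list.

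Of the 4316 cKO-only regions, 682 were retained spermatogonial sites, which is 15.8% (exact binomial 95% interval 14.7 to 16.9, counting error of regions only). Of all merged regions 26.5% had a peak in both wild-type cKIT+ lists. By wild-type cKIT+ replicate 2 alone the shares were 31.6% of cKO-only and 40.1% of all merged regions, so by either measure the members lay below the merged regions. They lay above the 54463 regions in other combinations of the 4C-sorted lists, with 8.99% in both wild-type cKIT+ lists and 22.2% in replicate 2. Among those, the 5012 regions in both cKO lists and 1 wild-type list had 26.8% in both wild-type cKIT+ lists. With a peak in at least 1 of the 4 cKIT+ lists there were 2009 members, 46.5%, against 51.5% of all merged regions, and 636 members had a peak in all 4. The largest class, 2307 members or 53.5%, had no cKIT+ peak in any list. Of the 28051 regions in all 4 4C-sorted lists, 63.8% were open in both wild-type cKIT+ lists and 77.8% in replicate 2.

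The regions found in the opposite direction give a comparison chosen by the mirrored rule. Of the wild-type-only regions 155 of 2361, or 6.57%, were open in both wild-type cKIT+ lists. The cKO-only share was larger by 9.24 percentage points. Library by library, 39.9% and 36.1% of cKO-only regions had a peak in the cKIT+ cKO lists, against 26.8% and 23.4% of wild-type-only regions. In the wild-type cKIT+ lists it was 20.2% and 31.6% of cKO-only regions, against 10.4% and 21.0% of wild-type-only regions. The cKO-only share was the higher in 4 of 4 cKIT+ libraries, by a mean of 11.5 points (exact sign-flip permutation test over the 4 libraries, two-sided p = 0.125, the smallest this design allows). All 4 differences compare the same 2 sets of regions, so they are not independent. The p-value does not measure the spread between the 4C-sorted libraries that defined the sets. The mean depended on how many lists defined each set. With 1 cKO list against both wild-type lists it was −2.44 points without 4C-sorted cKO replicate 1 and −7.19 points without cKO replicate 2. With both cKO lists against 1 wild-type list it was 20.6 points without wild-type replicate 1 and 26.5 points without wild-type replicate 2. With 1 cKO list against 1 wild-type list it was 2.47 to 12.2 points over the 4 pairs.

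The difference had the same sign in each class of regions. In quartiles of mean fold the retained share was 14.7% to 16.7% of cKO-only regions, against 3.88% to 8.63% of wild-type-only regions in the same ranges. In quartiles of width it was 13.7% to 17.7%, against 5.57% to 8.25%. At gene ends it was 21.5% of cKO-only and 12.1% of wild-type-only regions. It was 13.5% and 5.21% elsewhere in genes, and 17.2% and 6.86% outside genes. By wild-type cKIT+ replicate 2 alone the quartiles of fold ranged from 30.8% to 33.2% of cKO-only and 18.0% to 23.7% of wild-type-only regions, and those of width from 28.4% to 35.2% and 17.8% to 23.9%. At gene ends the shares were then 45.5% and 37.1%, elsewhere in genes 27.5% and 18.9%, and outside genes 32.4% and 18.8%. When peaks needed a −log10 q of 5 or more, 780 cKO-only and 1436 wild-type-only regions were found, and 48.8% of the cKO-only against 25.7% of the wild-type-only regions were retained. The direction depended on the rule: when a single cKO list without its replicate defined the cKO-only regions but both wild-type lists were kept, the difference was 1.70 points without cKO replicate 1 and −2.97 points without cKO replicate 2. With 1 cKO list set against 1 wild-type list it was 1.46 to 8.65 points over the 4 pairs.

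**Figure D2:**
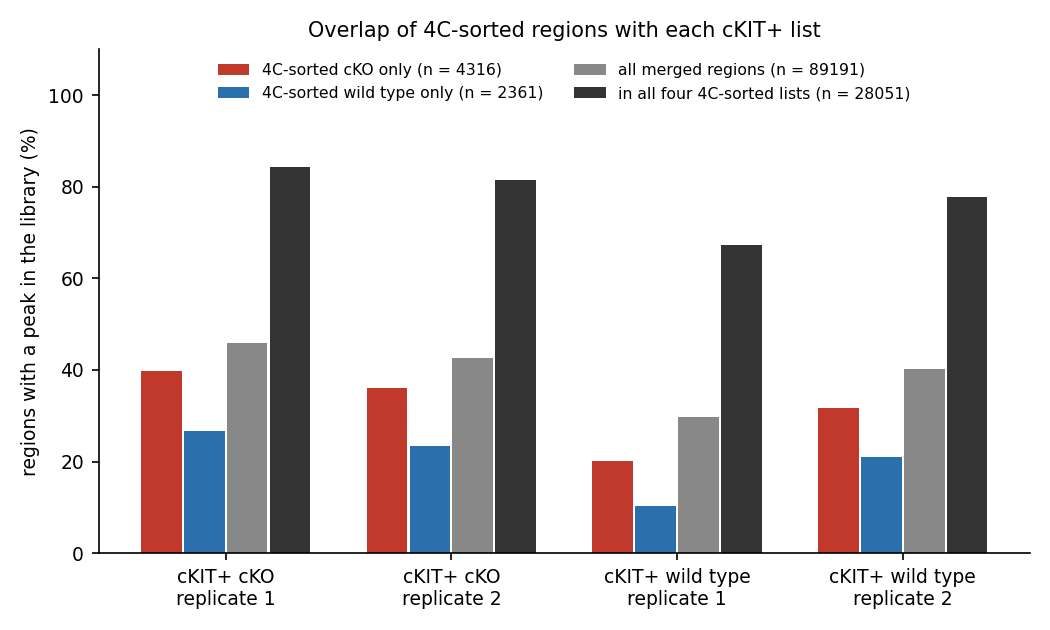
Percent of regions (y axis) with a peak in each of the 4 cKIT+ libraries (x axis) for 4C-sorted regions found only in cKO, only in wild type, all merged regions and regions in all 4 lists; bars are single libraries with no error. In each library the cKO-only bar (20.2% to 39.9%) stands above the wild-type-only bar (10.4% to 26.8%) and below the bar for all merged regions.

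Between the genotypes of the cKIT+ cells, the percent of cKO-only regions with a peak averaged 38.0 ± 2.67 in cKO and 25.9 ± 8.09 in wild type (SD, n = 2 each). The difference of 12.1 points did not pass the exact permutation test (two-sided p = 0.333, the smallest that 2 against 2 libraries can give). Set against all merged regions in the same library, the log2 ratio averaged −0.22 ± 0.03 in cKO and −0.45 ± 0.15 in wild type, a difference of 0.23 (exact permutation p = 0.333). With all cKIT+ lists shortened to the 43672 peaks of the shortest, the highest by −log10 q, the first difference was −0.82 points and the second 0.03. Without wild-type cKIT+ replicate 1 the first was 6.36 points. In both cKO and neither wild-type cKIT+ list there were 195 members, 4.52%, against 3.52% of all merged regions, a share near that background. The reverse pattern was found at 24 members, 0.556%, against 0.54% of all merged regions.

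Fold enrichment at the retained sites is given for both kinds of cells as a description, with no test. The median fold of the 682 sites was 3.44 and 3.49 in 4C-sorted cKO. It was 6.50 and 6.66 over the 647 sites with a peak in each cKIT+ cKO library, and 4.00 and 4.92 over all 682 in wild-type cKIT+. The sites were chosen through their peaks in the 4C-sorted cKO and wild-type cKIT+ lists. Fold enrichment is also relative to each library's own local background, so these values are not a measure of change between libraries.

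Most cKO-only regions lay away from promoters. Within 1000 bp of a gene end (the start where the strand was known, either annotated end otherwise) there were 585 members, 13.6%. A further 53.0% lay elsewhere in a gene and 33.5% outside genes. Wild-type-only regions were distributed alike, with 11.5%, 54.5% and 34.0%, whereas 51.8% of the regions in all 4 lists lay at a gene end. Retained sites were at a gene end in 18.5% and regions with no cKIT+ peak in 9.06%, or 19.5% and 9.63% when wild-type cKIT+ replicate 1 was left out. The median distance to a protein-coding start was 22778 bp for cKO-only regions, 16425.5 bp for the retained sites among them, 26469 bp for those with no cKIT+ peak, and 27210 bp for wild-type-only regions.

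**Figure D3:**
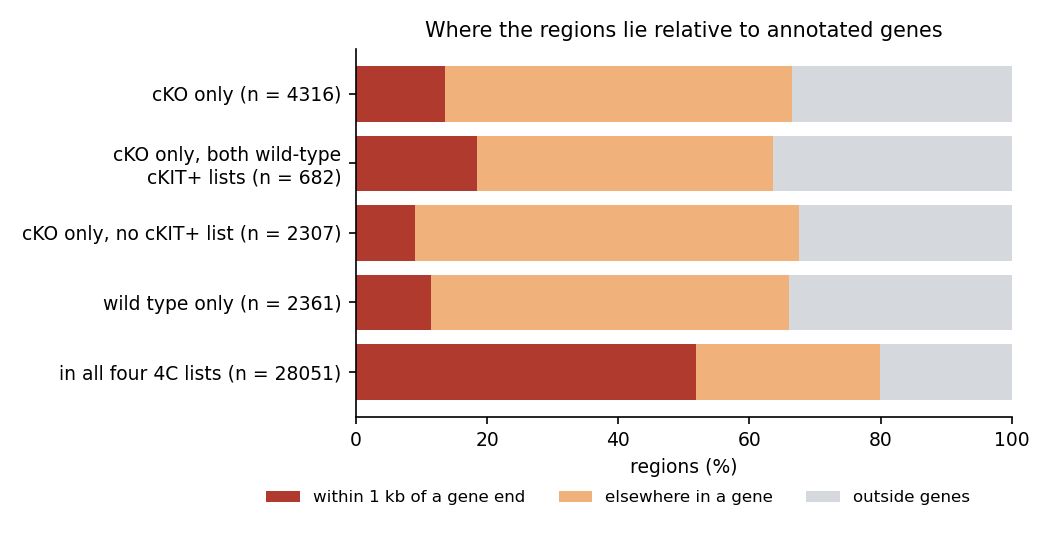
Percent of regions (x axis) within 1 kb of a gene end, elsewhere in a gene, or outside genes, for cKO-only regions, their retained and no-cKIT+ subsets, wild-type-only regions and regions in all 4 lists (rows). The cKO-only and wild-type-only rows are alike at 13.6% and 11.5% gene ends, while regions in all 4 lists reach 51.8%.

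Members were spread over the autosomes, from 4.06% of the merged regions on chromosome 1 to 5.61% on chromosome 13. The 1-Mb window with most members, 14 of 138 regions, was at 135 to 136 Mb of chromosome 5. Regions were also counted in a pair of stretches of chromosome 14, of which the one at 41 to 45 Mb holds Gm8165, Gm8212 and Gm8220, with promoter windows 95.7% to 97.7% identical. Between 3 and 8 Mb there were 24 cKO-only and 6 wild-type-only regions among 212, and between 41 and 45 Mb there were 12 and 9 among 155. Over the whole of chromosome 14, 4.85% of merged regions were cKO-only and 3.04% wild-type-only. Any cKIT+ peak was present at 3 of the 24 and 2 of the 12 cKO-only regions, against 46.5% of all members. None of them was retained, against 15.8% of all members. Both stretches were picked after their values were seen, and read placement among these 3 copies is uncertain.

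A total of 237 promoter windows of 210 genes overlapped a cKO-only region, and in 184 of them the start base itself lay inside. Taking 1 window per gene, the CpG observed-over-expected ratio had a median of 0.53 at the 47 genes with a retained site and 0.11 at the 67 genes whose region had no cKIT+ peak. It was 0.29 at the 74 genes with a wild-type-only region, 0.78 at the 11849 genes with a region in all 4 lists and 0.39 over all 25748 autosomal genes with a window. A ratio above 0.6, which marks CpG-rich promoters, was found at 20 of 47 retained and 3 of 67 no-cKIT+ promoters, that is 42.6% and 4.48%, against 37.1% of all and 4.27% of promoters that overlap no 4C-sorted region, whose median ratio was 0.20. Without wild-type cKIT+ replicate 1 the medians were 0.50 at 106 genes with a replicate 2 peak and 0.13 at 78 genes with none. This is a description of sequence and was not tested.

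**Figure D4:**
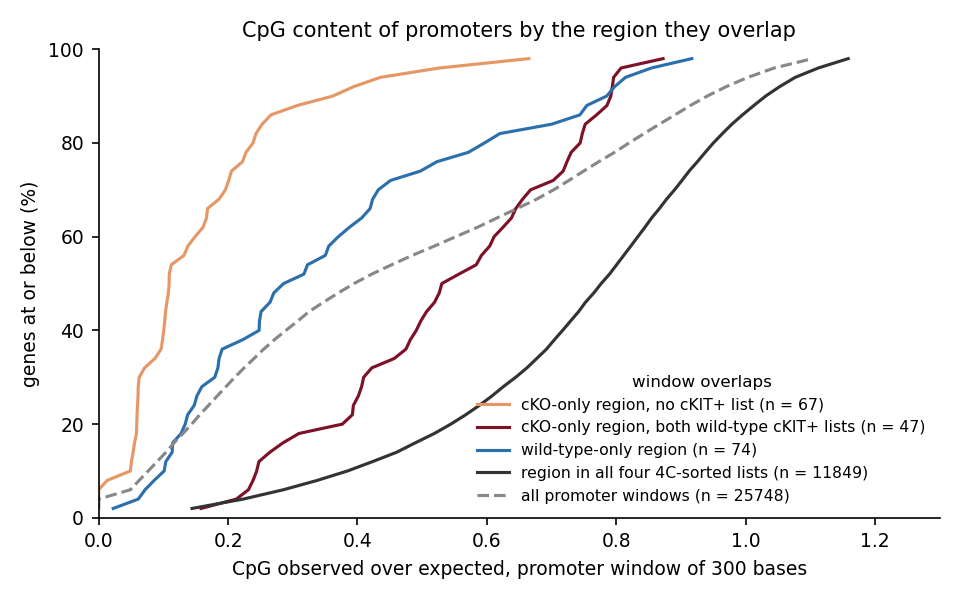
Cumulative percent of genes (y axis) against the CpG observed-over-expected ratio of their 300-base promoter window (x axis), by the class of 4C-sorted region that the window overlaps. The curve of the 67 promoters with a cKO-only region and no cKIT+ peak lies left of the others with a median of 0.11, and that of the 47 retained promoters has a median of 0.53.

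Sequence motifs were searched on both strands of the same windows, and only some of those searched are given here. The GC box GGGCGG, the site of SP and KLF factors, was in 51.1% of the retained promoters and 13.4% of those with no cKIT+ peak, against 36.3% of all windows. The CCAAT box (CCAAT) was in 40.4% and 26.9%, against 37.8% of all. The motif CNCCTCAG, given for the meiotic inducer STRA8, was in 1 of 47 retained promoters and in 16 of 67 with no cKIT+ peak, 23.9%, against 7.94% of all. Without chromosome 14 it was in 7 of 55, 12.7%. It was in 9.46% of promoters with a wild-type-only region and 9.43% of those with a region in all 4 lists. Without wild-type cKIT+ replicate 1 it was in 6.60% of promoters with a replicate 2 peak and 20.5% of those with none, chromosome 14 included. The H2bl1 window shown above held it at both −133 on its own strand and −161 on the other, counted from the start. A base could count for more than 1 motif, and a match in letters does not show binding.

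Gene lists were read for cKO-only regions at gene ends. Of 20665 protein-coding genes 285 had one, 1.38%, so a count of 0 in lists of this size is near the background. Of the spermatogonial regulators it was 0 of 25, of meiotic prophase genes 0 of 37, of piRNA and germ granule genes 0 of 20, of pachytene and spermatid regulators 0 of 15, of ISWI subunits and partners 0 of 12, of AP-1 and early response genes 0 of 16 and of cell cycle genes 0 of 24. Most of these genes had a gene-end region in all 4 lists, for example 34 of 37 meiotic prophase genes. Of the list drawn up as protamines and sperm chromatin it was 3 of 14, namely the histone genes H1f7 and H2bl1 and the antizyme gene Oaz3, which is not a chromatin gene. Of developmental regulators it was 4 of 45 (Hoxa2, Hoxd3, Gata6 and Sox2) and of flagellum genes 1 of 24 (Rsph4a, a radial spoke head gene).

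H1f7, H2bl1 and Oaz3 are expressed in spermatids. H2bl1, a testis H2B variant, had a region with folds of 5.46 and 4.99 in 4C-sorted cKO and no cKIT+ peak. H1f7 encodes the spermatid linker histone H1T2, and its region had 3.54 and 3.36, with a peak in both cKO cKIT+ lists and in wild-type replicate 1. Oaz3, which encodes the testis form of ornithine decarboxylase antizyme, had 3.77 and 3.04, with a cKIT+ peak only in wild-type replicate 1. In the cKO single-cell samples H2bl1 was at 1665 and 1305 CPM (UMI counts scaled to the same total in each class) in elongating spermatids and 652 and 653 CPM in round spermatids. It was at 33.6 and 38.1 CPM in pachytene or diplotene spermatocytes against 33.9 and 24.1 CPM in spermatogonia. Somatic classes held UMIs of it too, at 33.0 and 24.9 CPM in Leydig cells and 845 and 386 CPM in the Sertoli class, and how much of this is free spermatid RNA was not tested. Pachytene over spermatogonia the log2 fold change was 0.69 (SE 0.40, adjusted p = 0.143, edgeR). H1f7 was at 19.8 and 21.3 CPM in pachytene against 46.7 and 27.5 CPM in spermatogonia (adjusted p = 0.372), and Oaz3 at 27.3 and 40.0 against 49.8 and 36.4 (adjusted p = 0.989), so neither passed the threshold. In the Sertoli class H1f7 was at 975 and 626 CPM and Oaz3 at 615 and 461 CPM.

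Rsph4a had 3.49 and 3.42 in 4C-sorted cKO and was open in all 4 cKIT+ lists, at 6.47 and 7.43 in cKO against 5.10 and 5.51 in wild type. Its RNA was at 0.0754 and 0.064 CPM in pachytene against 1.06 and 0 CPM in spermatogonia. The gene did not pass the filter on low counts, and these values rest on a few UMIs at most, too few for a comparison.

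Within 50 kb of the start a cKO-only region was found at 25.0% of protein-coding genes, and a retained site at 4.89%. It was found at 9 of 25 spermatogonial regulators, including Gfra1, the GDNF receptor gene of stem cells, and a retained site at 3 of them, Id4, Nanos3 and Pou3f1. It was found at 11 of 37 meiotic prophase genes, with a retained site at Syce2, a central element gene of the synaptonemal complex, and Rec8, the meiotic cohesin gene. It was found at 7 of 20 piRNA and germ granule genes, with 0 retained sites, and at 1 of 15 pachytene and spermatid regulators, Sox30. Of 16 AP-1 and early growth response genes 5 had one, of which 4, Fosb, Jund, Ier2 and Ier3, had a retained site. Of 24 cell cycle genes 4 had one, of which 3, Cdk1, Cdc25c and Aurka, had a retained site. No test was made on these lists.

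The developmental regulators were close to cKO-only regions through their clusters. Within 50 kb of the start there was a cKO-only region at 31 of 45 genes of the list, against 25.0% of protein-coding genes, and a retained site at 12, against 4.89%, but neighbouring Hox genes share regions and the list cannot be read gene by gene. The spans of the 4 Hox clusters held 39 genes and 106 merged regions, of which 37 were in all 4 lists, 9 were cKO-only and 1 was wild-type-only. Over all merged regions 4.84% were cKO-only. The Hox genes specify position along the body axis and are known targets of Polycomb repression. The cKO-only regions numbered 3 in the Hoxa, 4 in the Hoxb and 2 in the Hoxd cluster, and 0 in the Hoxc cluster. All 9 had a peak in at least 1 cKIT+ list, against 46.5% of all members, while 1, at chr11:96311715-96312043 in Hoxb with 3.36 and 3.24 in 4C-sorted cKO, was open in both wild-type cKIT+ lists. Gata6, which encodes an endoderm and Sertoli cell factor, had 2.87 and 3.00 in 4C-sorted cKO and was open in all 4 cKIT+ lists. At Hoxa2 the 4C-sorted cKO folds were 3.24 and 3.18 and at Hoxd3 2.85 and 3.44. Sox2, a pluripotency factor gene, had 2.80 and 2.94 at a region 851 bp from its start, open in all 4 cKIT+ lists with folds of 3.55 and 3.62 in cKO against 3.53 and 3.47 in wild type. In the single cells Sox2 was at 1.51 and 1.47 CPM in pachytene and at 0 UMIs in spermatogonia of both samples. It did not pass the filter on low counts. The spermatogonial pools held 943106 and 1454208 UMIs in all, too few to tell 0 from the pachytene level.

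Markers of other cells were looked up in the same way. Gene-end regions found only in cKO were at Cd3e, which encodes a subunit of the T cell receptor complex (4.06 and 4.69 in 4C-sorted cKO, with cKIT+ peaks of 3.48 and 3.73 in cKO and none in wild type) and at the stromal factor Tcf21, out of 5 T cell and 8 stromal markers. No Sertoli, Leydig, macrophage or endothelial marker had one. Within 50 kb, however, a cKO-only region was found at 4 of 5 T cell and 5 of 6 endothelial markers, against 25.0% of protein-coding genes, and at 3 of 8 macrophage markers, the adjoining C1qa, C1qb and C1qc. It was found at 1 of 8 stromal, 1 of 6 Leydig and 0 of 10 Sertoli markers. A retained site lay within 50 kb of 3 of 6 endothelial markers (Pecam1, Tie1 and Esam) and 1 of 5 T cell markers. This compares with 4.89% of protein-coding genes, and with 0 of the macrophage, stromal, Leydig and Sertoli markers. Cd3d, Cd3e and Cd3g adjoin and share regions. In cKO single cells Cd3e was at 0 and 0.096 CPM in pachytene against 5.30 and 11.0 CPM in spermatogonia, and lower by the edgeR test (log2 fold change −6.51, SE 0.87, adjusted p = 1.2e-07). The spermatogonial pools held 943106 and 1454208 UMIs in all, so these levels rest on few UMIs. It was also at 2.20 and 12.5 CPM in leptotene or zygotene spermatocytes and at 0 CPM in macrophages, so its RNA in these samples was not limited to T cells. Whether other cells in the 4C gate contribute to these regions was not tested.

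The genes at cKO-only gene ends were then followed from spermatogonia to pachytene in the cKO single-cell samples. This asks how such genes behave across the stage, not whether the mutation changed them, since no wild-type sample is there. Of 631 genes at a cKO-only gene end, 379 were in the matrix and 252 passed the filter on low counts. Of the 252, 48 were higher in pachytene or diplotene spermatocytes and 71 lower (edgeR quasi-likelihood test, Benjamini-Hochberg over 19241 genes, threshold 0.05). These are 19.0% and 28.2%, against 23.8% higher and 31.5% lower over all genes, which is near the background. The median log2 fold change was 0.01, against −0.14 over all genes. With no filter on low counts the counts were 86 higher and 56 lower. The shares over all genes without the filter are not given, so these counts have no background beside them.

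Gene ends with a retained site and those with no cKIT+ peak had medians of opposite sign, a difference that was not tested. Of 67 tested genes at a retained gene end, 7 were higher and 24 lower, which is 10.4% and 35.8%, with a median log2 fold change of −0.68. Over all genes tested 23.8% were higher and 31.5% lower. Over the autosomal protein-coding genes tested it was 21.7% and 35.9%, with a median of −0.43. The share of retained genes called lower was thus near that background. Of 73 tested genes whose region had no cKIT+ peak, 21 were higher and 8 lower, which is 28.8% and 11.0%, with a median of 0.91. Without wild-type cKIT+ replicate 1 the medians were −0.89 over 147 genes with a replicate 2 peak and 1.08 over 83 with none. When regions were given to the nearest protein-coding start the difference was not seen, with medians of −0.41 over 381 genes for retained sites and −0.47 over 1178 genes for regions with no cKIT+ peak. Gene ends with a region in all 4 lists had a median of −0.45, with 24.6% of genes higher and 37.9% lower. For wild-type-only gene ends it was 40 higher and 19 lower of 101, which is 39.6% and 18.8%, with a median of 0.80. The class with the highest mean CPM was round or elongating spermatids for 44 of the 73 genes with no cKIT+ peak, 60.3%, and for 16 of the 67 retained ones, 23.9%, against 26.6% of all genes tested. Leydig, Sertoli or macrophage classes were highest for 30 of the 67 retained genes, 44.8%, against 24.8% of all. Spermatogonia were highest for 14 of the 67, 20.9%, against 21.1% of all, so the retained genes did not stand out as spermatogonial by this measure. The genes were selected through accessibility alone, but those tested had passed the expression filter, so the shares are descriptions.

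**Figure D5:**
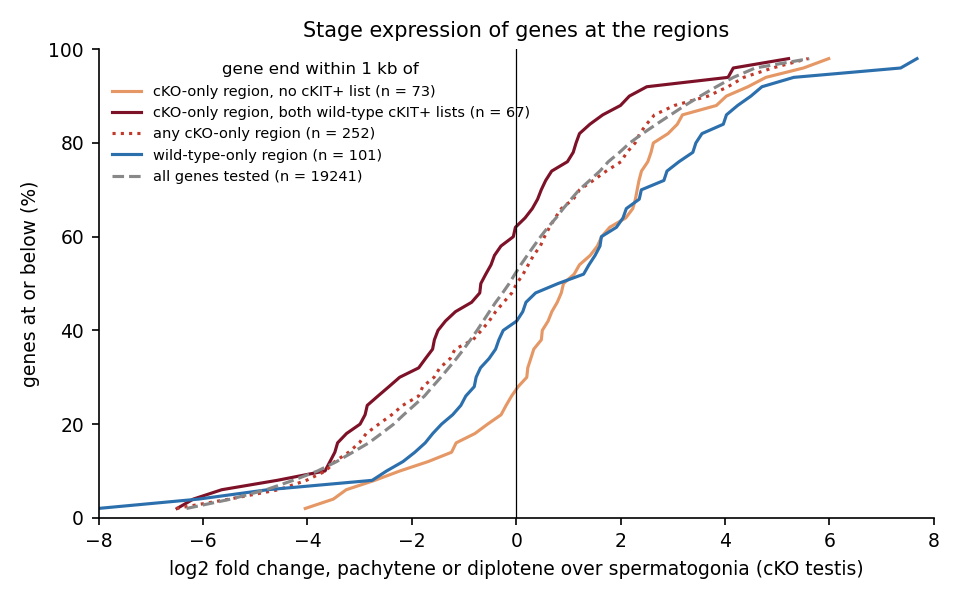
Cumulative percent of genes (y axis) against the log2 fold change of pachytene or diplotene spermatocytes over spermatogonia in cKO testis (x axis), for genes at cKO-only gene ends, their no-cKIT+ and retained subsets, wild-type-only gene ends and all genes tested. The retained curve lies left with a median of −0.68, and the no-cKIT+ curve lies right with a median of 0.91.

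Single genes show the range, and these were chosen after their values were seen. Gcat, which encodes glycine C-acetyltransferase of threonine breakdown, had a retained site with a mean fold of 2.60 ± 0.24 in 4C-sorted cKO (SD, n = 2). It was at 0.226 and 0.544 CPM in pachytene against 65.7 and 126 CPM in spermatogonia, and fell by 7.56 on the log2 scale (SE 0.53, adjusted p = 7.7e-13, edgeR). The F-box gene Fbxl6 (mean fold 2.45 ± 0.14) was at 0.980 and 0.608 CPM in pachytene against 47.7 and 88.7 CPM in spermatogonia. Hivep2, a zinc finger factor gene (mean fold 3.06 ± 0.03), was at 0.302 and 0.576 CPM in pachytene against 55.1 and 56.4 CPM in spermatogonia. Of all genes tested 31.5% were lower in pachytene. The 3 genes named here had peaks in all 4 cKIT+ lists. At these genes the region was called in 4C-sorted cKO cells, and the RNA was below 1 CPM in pachytene or diplotene cells of cKO testis. The calls were weak. Mean folds of Gcat and Fbxl6 were below the 5th percentiles of members, 2.89 and 2.84 in the 2 cKO libraries. That of Hivep2 was below the medians of 3.45 and 3.43.

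Low counts were found at 3 further genes with retained sites. Igtp, the interferon-induced GTPase gene, was read as 0 and 2 UMIs in pachytene against 2 and 4 UMIs in spermatogonia, too few for a fold. Irf9, a subunit of the interferon-activated transcription factor, was at 0.377 and 0.128 CPM in pachytene against 3.18 and 3.44 CPM in spermatogonia (adjusted p = 0.0021). Ifih1, a sensor of double-stranded RNA, was at 0.302 and 0.352 CPM against 4.24 and 2.75 CPM (adjusted p = 0.0074). These Irf9 and Ifih1 values rested on 3 to 5 UMIs per spermatogonial sample.

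Retained sites could also lie at genes that were higher in pachytene. Lrrk2, whose promoter is shown above, was at 9.88 and 9.64 CPM in pachytene against 0 and 4.81 CPM in spermatogonia (log2 fold change 2.14, SE 0.68, adjusted p = 0.0082, edgeR). Dgcr6, a gene of the region deleted in DiGeorge syndrome, was at 314 and 390 CPM in pachytene against 58.3 and 88.7 CPM in spermatogonia (log2 fold change 2.61, SE 0.45, adjusted p = 6.7e-06). Genes with a retained site were thus called in both directions.

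Among genes whose region had no cKIT+ peak, Il31, an interleukin gene, had a mean fold of 4.08 ± 0.41 in 4C-sorted cKO and was at 16.5 and 45.1 CPM in pachytene against 3.18 and 8.25 CPM in spermatogonia (log2 fold change 2.65, SE 0.52, adjusted p = 4.5e-05). Fam24a was at 16.0 and 70.0 CPM against 6.36 and 13.8 CPM (adjusted p = 2.8e-04). Both genes were among the leading genes of clusters named as round spermatids, and the part of spermatid RNA in the pachytene values was not tested. Bri3, with the promoter shown above and folds of 5.02 and 3.35, was lower in pachytene, with 15.5 and 62.3 CPM in pachytene against 226 and 303 CPM in spermatogonia (log2 fold change −2.64, SE 0.40, adjusted p = 8.7e-07). Over all genes tested 23.8% were higher in pachytene and 31.5% lower.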

How the data were processed

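ATAC-seq was measured in 8 libraries (50000 sorted cells each) and single-cell RNA in 2 cKO whole-testis samples, with mm10 as the genome per the labels. Reads were trimmed with cutadapt, aligned with Bowtie2 and peaks called with MACS2 in broad mode, per the submitters' processing notes and the deposited file format, 1 list per library. Each deposited peak carries the authors' score, fold (a ratio of enrichment over local background), −log10 p-value and −log10 q-value. The lists hold no read counts, so the depth behind a peak is unknown and no test on reads was made. Shorter lists can lose weak peaks, so absence from a list is not absence of accessibility.

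Overlap means at least 1 bp. A gene end is the start where the RefSeq promoter table gives the strand and either annotated end otherwise, within 1000 bp. Promoter composition used the first window of each gene. Intervals are exact binomial.

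UMI counts per gene and cell were deposited by the authors, made with Cell Ranger 7.1.0 for replicate 1 and 9.0.1 for replicate 2 per the file headers. The submitters' processing notes also name Seurat 4.1.0. Barcodes with at least 1000 UMIs, 500 genes and at most 10% mitochondrial UMIs were kept, Scrublet doublets (685 and 1329) were removed, and 7413 and 12933 cells remained, with medians of 3678 and 4333 UMIs. The samples shared 32 barcodes. Clusters (scanpy 1.11.5) were named from marker lists, and 699 and 2224 cells stayed unnamed. Counts were summed per sample and class over 8 classes and tested with edgeR 4.0.16 quasi-likelihood, TMM and a sample term, with Benjamini-Hochberg adjustment; DESeq2 1.42.0 was an alternative. The sample term pairs classes of the same testis sample. The step was tested on simulated data. R 4.3.3, limma 3.58.1, Python 3.11.15, numpy 2.4.6, pandas 2.3.3, scipy 1.17.1 and matplotlib 3.10.9 were used.

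Members, lists and tests were chosen with earlier results of these data known. The regions named by rule are the 10 with the highest mean fold over the 4C-sorted cKO libraries (among all members, at gene ends and among retained sites) and every list gene with a member at a gene end; other names were chosen after their values were seen. One of the regions named by rule is not reported here.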

Additional observations from a re-analysis of the deposited data

How the results depend on the processing

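The number of cKO-only regions was 2801 with peaks of −log10 q of at least 2 and 780 with at least 5. Leaving out a 4C-sorted library loosens the rule, and the count was 16482 when cKO replicate 1 was dropped and 14766 when cKO replicate 2 was. Dropping wild-type replicate 1 gave 6003 and dropping wild-type replicate 2 gave 7663. The retained share was 24.2% and 48.8% at the 2 q limits, 17.3% with 4C-sorted lists of equal length, 8.97% with at least 50% of the region covered by cKIT+ peaks and 9.24% with cKIT+ lists of equal length. It ranged from 8.09% to 21.1% without each 4C-sorted library, and dropping cKIT+ wild-type replicate 1 gave 31.6%, dropping its replicate 2 gave 20.2%.

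The cKIT+ cKO minus wild-type difference was −0.82 points with lists of equal length. With the replicate block it stayed at 12.1 points (exact permutation p = 0.5, the smallest that pairs allow); the numbers name samples and are not known to pair the ATAC libraries. Comparisons with wild-type-only regions were added after seeing the data: the mean over the cKIT+ libraries was −2.44 points with 4C-sorted cKO replicate 1 dropped and −7.19 points with cKO replicate 2 dropped, against up to 26.5 points with a wild-type library dropped. The retained share then differed by −2.97 points with cKO replicate 2 dropped, and by up to 17.3 points with a wild-type library dropped.

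The genes higher in pachytene numbered 86 with no filter on low counts and 82 with gene ends of 2000 bp, and the genes lower 56 and 112. With no filter the balance thus turned to more genes higher than lower, against 48 higher and 71 lower in the report. The shares of all genes higher and lower without the filter are not given, so this turn cannot be set against a background. Without the sample term (no replicate block) they were 43 and 70. Leaving out 1 single-cell sample left no residual degrees of freedom, so only medians were computed, from −0.56 to −0.48 for retained and 0.66 to 1.00 for no-cKIT+ gene ends. The median of all genes moved by 0.14 with RLE size factors. Causes of these shifts were not tested.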
